A study of Mus musculus with 6 samples.

Results

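The Tent5 family encodes non-canonical poly(A) polymerases, and its RNA was followed here in mouse breast cancer cells sorted on CD24 and CD29, a pair of surface proteins. The family has 4 genes, Tent5a to Tent5d, formerly Fam46a to Fam46d. Every probe set with one of these symbols as its only symbol in the platform annotation was taken. This gave 4 probe sets for 3 genes, out of 45037 probe sets that were not controls, 34945 of which carried 1 symbol and represented 18193 genes. Tent5c has the probe sets 1448021_at and 1429682_at, Tent5b has 1433877_at, Tent5a has 1437868_at, and Tent5d was not analysed here. The family was chosen by the large difference of Tent5c between these same arrays, so the values of its members are a description with no test.

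There were 6 arrays, 3 from CD24+CD29+ cells and the other 3 from CD24-CD29- cells. The labels call both groups breast cancer stem cells, and both were grown in DMEM with serum before the sort. Total RNA was read on Affymetrix Mouse430_2 arrays, on which probe sets lie mostly near the 3' end of a transcript. RNA of both sort genes was read well above the lower quartile in both groups on the probe set that represents each gene. Cd24a stood at 13.02, 12.98 and 12.98 on the CD24+CD29+ arrays, against 12.81, 12.81 and 12.75 on the CD24-CD29- arrays. Itgb1, which encodes CD29, stood at 10.99, 10.89 and 10.93 on the CD24+CD29+ arrays, against 10.03, 10.09 and 10.07 on the CD24-CD29- arrays. Of the 5 other Itgb1 probe sets, 1 was lower in CD24+CD29+ cells (-0.17), at a mean level of only 4.32. Of the 2 other Cd24a probe sets, 1 was lower in CD24+CD29+ cells (-0.45), at a mean level of 12.04. The RNA of the cells labelled CD24-CD29- thus does not show the absence that their label gives for the surface proteins, which the arrays do not measure. The labels give no strain, tumour of origin or genotype, and the series speaks of independent biological sample sets without saying whether these were cultures, sorts or animals. The p-values below thus rest on the spread among these arrays, part of which may be technical. In bulk RNA of this kind, fewer cells that express a gene and less RNA per cell cannot be told apart.

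TENT5 enzymes act in the cytoplasm, where they lengthen the poly(A) tails of selected messenger RNAs and so make them last longer. Many of these messages encode secreted proteins translated at the endoplasmic reticulum. In mice TENT5C acts on immunoglobulin messages in plasma cells and is needed for male fertility, and its human gene is often mutated in multiple myeloma. TENT5A acts on collagen I messages in mouse osteoblasts, and mutations of its human gene cause a form of osteogenesis imperfecta. TENT5D has a role in the testis.

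The promoters of the members with the largest differences, Tent5c and Tent5b, are shown as background. Whether the RNA read on the arrays starts at these sites was not tested. Each run covers 250 bases before to 50 bases after the start in RefSeq (GRCm38.p6), on the strand of the gene, with CCAAT and GGGCGG, or their reverse complements, in capitals. These letters are the core of the CCAAT box and of the GC box, both common elements of promoters. The Tent5c window is chr3:100489143-100489442 on the minus strand, and the Tent5b window is chr4:133479883-133480182 on the plus strand.
Tent5c: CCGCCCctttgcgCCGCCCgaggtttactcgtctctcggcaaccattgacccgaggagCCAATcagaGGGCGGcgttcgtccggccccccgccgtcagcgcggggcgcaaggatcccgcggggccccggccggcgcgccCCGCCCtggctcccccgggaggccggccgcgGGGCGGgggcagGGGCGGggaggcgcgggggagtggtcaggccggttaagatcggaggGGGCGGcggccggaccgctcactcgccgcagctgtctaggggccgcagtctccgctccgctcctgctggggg
Tent5b: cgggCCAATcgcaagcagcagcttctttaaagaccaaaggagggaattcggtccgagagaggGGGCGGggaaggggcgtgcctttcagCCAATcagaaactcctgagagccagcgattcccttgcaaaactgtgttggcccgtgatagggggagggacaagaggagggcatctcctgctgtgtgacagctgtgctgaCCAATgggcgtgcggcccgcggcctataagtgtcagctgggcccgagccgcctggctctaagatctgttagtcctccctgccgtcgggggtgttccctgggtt

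The Tent5c window had a GC content of 78.0%, with 7 matches to GGGCGG and 1 to CCAAT on either strand. The Tent5b window had a GC content of 60.7%, with 1 match to GGGCGG and 3 to CCAAT. Of all 32851 promoter windows of this length in the table, 35.7% held GGGCGG and 37.4% held CCAAT. Neither window held TATAAA, the core of a TATA box (13.6% of all windows), the E-box CACGTG (7.15%) or the forkhead motif TGTTTAC (3.65%) on either strand. Matches between GGGCGG and CCAAT did not overlap. The array data do not bear on which of these letters are bound.

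Tent5c RNA was low in CD24+CD29+ cells and high in CD24-CD29- cells. On 1448021_at its log2 expression was 5.78, 5.40 and 5.46 on the CD24+CD29+ arrays 1 to 3, against 10.23, 10.31 and 10.25 on the CD24-CD29- arrays 1 to 3. The groups were 4.45 apart at their nearest arrays, while the arrays of a group spanned 0.38 in CD24+CD29+ and 0.08 in CD24-CD29- cells. The means were 5.55 ± 0.21 in CD24+CD29+ cells and 10.27 ± 0.04 in CD24-CD29- cells (SD, n = 3 each). The difference, CD24+CD29+ minus CD24-CD29-, was -4.72 (SE 0.10), or 26.3-fold lower, the most negative of the 45037 probe sets. The CD24+CD29+ values of this probe set were dim, with 29.5% to 41.6% of probe sets reading lower on the same array. None of them lay below the lower quartile, but the fold is that of the values as read. CD24+CD29+ array 1 stood highest of its group, 0.38 above array 2.

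The other Tent5c probe set, 1429682_at, gave a difference of the same sign and of smaller size. It read 4.89, 4.93 and 4.72 on the CD24+CD29+ arrays, against 6.70, 6.78 and 6.68 on the CD24-CD29- arrays. No array of one group reached the other, with a gap of 1.75. The means were 4.85 ± 0.11 in CD24+CD29+ cells and 6.72 ± 0.05 in CD24-CD29- cells (SD, n = 3 each), a difference of -1.87 (SE 0.07), or 3.66-fold lower. It ranked 80th from the most negative end. All 3 of its CD24+CD29+ values lay below the lower quartile of their arrays (5.20 to 5.27), where background compresses differences, and none of its CD24-CD29- values did. The difference, fold and rank of this probe set are therefore those of the values as read, and its level in CD24+CD29+ cells is only bounded from above. Which part of the transcript each probe set reads was not used here, so an effect of transcript end or isoform was not tested.

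Tent5b, another cytoplasmic enzyme of the family, was dim in both groups. Its probe set read 5.32, 5.14 and 5.05 on the CD24+CD29+ arrays, against 5.90, 5.71 and 5.62 on the CD24-CD29- arrays. The groups did not overlap, but their gap was 0.30, about the span within a group (0.27 in CD24+CD29+ and 0.28 in CD24-CD29- cells). The means were 5.17 ± 0.14 in CD24+CD29+ cells and 5.74 ± 0.14 in CD24-CD29- cells (SD, n = 3 each). The difference of -0.57 (SE 0.09), 1.49-fold lower, turned to 0.40 when the arrays were scaled to the added poly-A control RNAs. Of its CD24+CD29+ values 2 lay below the lower quartile of their arrays, and of its CD24-CD29- values none did.

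Tent5a gave no separation of the groups. Its values were 5.27, 5.17 and 5.42 in CD24+CD29+ cells, against 5.26, 5.10 and 5.55 in CD24-CD29- cells. The highest and the lowest of the 6 values were both from CD24-CD29- cells. The means were 5.29 ± 0.13 in CD24+CD29+ cells and 5.30 ± 0.22 in CD24-CD29- cells (SD, n = 3 each), a difference of -0.01 (SE 0.11). Its sign changed with the scaling and when CD24+CD29+ replicate 2 (0.05) or CD24-CD29- replicate 3 (0.11) was left out. Its values lay below the lower quartile on 1 CD24+CD29+ array and 2 CD24-CD29- arrays, so a difference at this level was not well measurable.

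**Figure D1:**
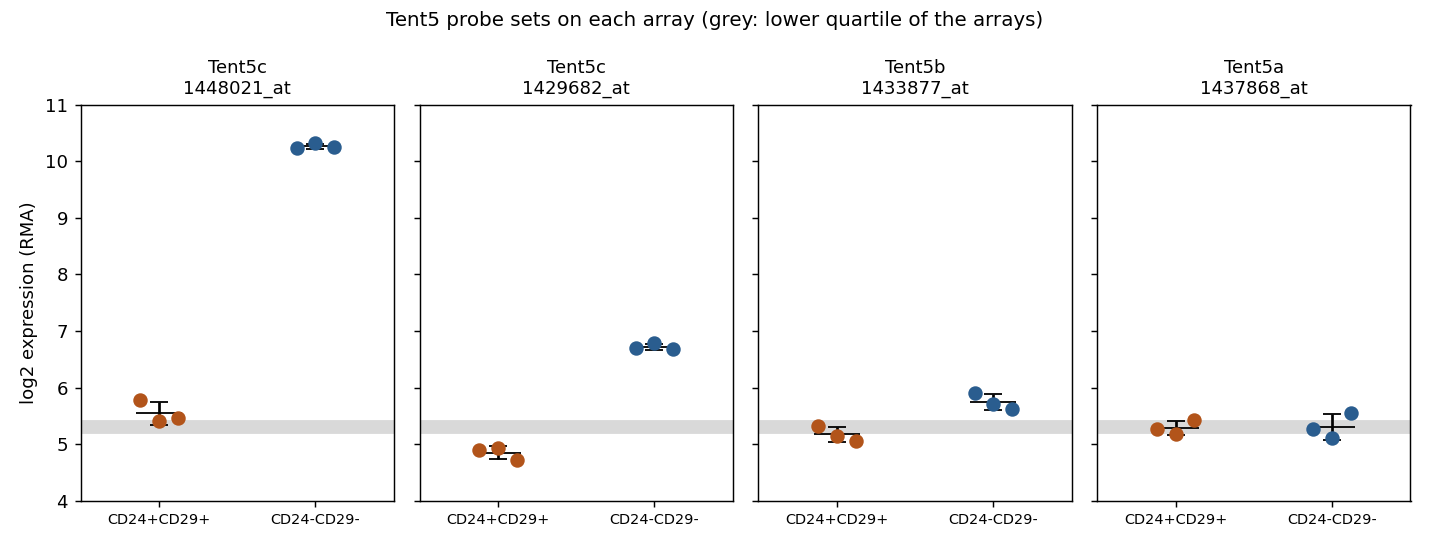
Log2 expression of each Tent5 probe set (y axis) on the 3 CD24+CD29+ and the 3 CD24-CD29- arrays (x axis); points are arrays, bars the mean ± SD, and the grey band spans the lower quartiles of the arrays (5.20 to 5.41). Both Tent5c probe sets stand apart by group, at 5.40 to 5.78 against 10.23 to 10.31 on 1448021_at, while Tent5b and Tent5a lie near the grey band in both groups.

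The groups did not overlap for 3 of the 4 Tent5 probe sets, and they did not overlap for 68.2% of all probe sets. Both Tent5c probe sets were lower in CD24+CD29+ cells by at least 2-fold, as were 1.15% of all probe sets. These shares describe the contrast by which the family was chosen, and nothing is read from them. The median difference over all probe sets was -0.05.

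**Figure D2:**
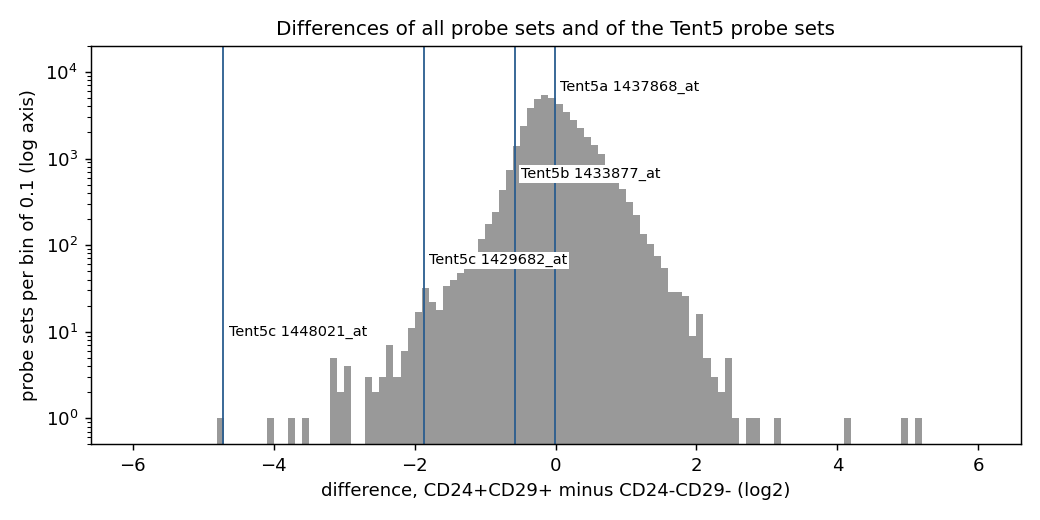
Number of probe sets (y axis, log scale) by difference between the groups in bins of 0.1 (x axis, log2, CD24+CD29+ minus CD24-CD29-), with a line at each Tent5 probe set. Tent5c 1448021_at lies at the lower end, at -4.72, and Tent5a lies in the bulk of the probe sets, at -0.01.

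Tent5c was lower under each of the 4 other scalings run. With quantile normalization, cyclic loess or median centring the difference of 1448021_at was -4.73, -4.91 or -4.66. The added poly-A control RNAs read lower on CD24+CD29+ arrays, by -1.55 to -0.07 over 27 probe sets. Scaling to their mean moved the median of all genes to 0.94, against -0.04 as deposited, and moved the Tent5c differences to -3.74 and -0.90. Directions of other genes are given on the scale as deposited, and a fall smaller than about that shift turns positive under it.

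The next question was whether genes beside Tent5c on chromosome 3 differed too. The 3 nearest measured protein-coding genes on either side were taken from the RefSeq gene table, which is used here only for the order of the genes. Of these 6 genes, 1 was higher, 3 were lower and 2 did not pass an adjusted p of 0.05 (limma, Benjamini-Hochberg over 18193 genes), where 34.4% of all genes were higher and 36.5% lower. Scaling to the poly-A controls made all 6 higher and none lower. Gdap2 stood at 8.36, 8.16 and 8.42 on the CD24+CD29+ arrays, against 9.01, 8.93 and 8.89 on the CD24-CD29- arrays, a difference of -0.63 (SE 0.07, limma adjusted p = 0.00015). Wdr3, a protein of ribosome assembly, differed by -0.56 and Man1a2, a mannosidase of the Golgi that trims N-linked glycans, by -0.33. Trim45 was higher by 0.28, and Spag17 (0.09) and Vtcn1 (0.04) did not pass. None of the 6 differed by 2-fold, against 26.3-fold as read for Tent5c.

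**Figure D3:**
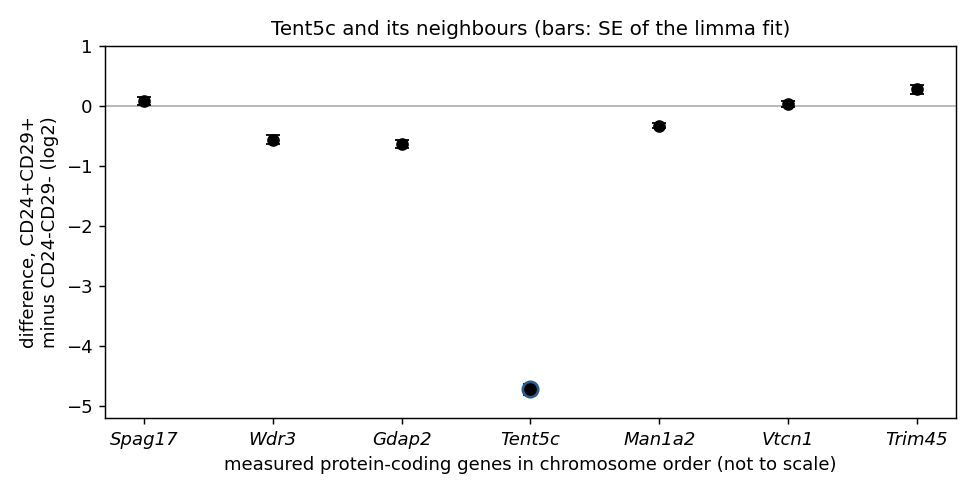
Difference between the groups (y axis, log2, CD24+CD29+ minus CD24-CD29-) of Tent5c (1448021_at, blue) and of the 3 nearest measured protein-coding genes on each side (x axis, chromosome order, not to scale); bars are the SE. The neighbours lie between -0.63 and 0.28, and Tent5c lies at -4.72.

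The genes whose values over the 6 arrays were most like those of Tent5c were found by the root-mean-square distance after each gene was centred on its own mean. With 2 groups this measure mainly reflects the group difference, so it is a description over these 6 arrays. The nearest was 3830417A13Rik, at a distance of 0.38, with 5.00, 4.93 and 5.02 on the CD24+CD29+ arrays against 9.05, 9.04 and 8.87 on the CD24-CD29- arrays. Ceacam10 followed at 0.49, Klhl13, an adaptor of a ubiquitin ligase, at 0.77, the adhesion receptor gene Adgrf5 at 0.79 and Reep1, which shapes the endoplasmic reticulum, at 0.80. Their differences were -4.01 for 3830417A13Rik, -3.76 for Ceacam10, -3.18 for Klhl13, -3.16 for Adgrf5 and -3.13 for Reep1. In all 5, as in Tent5c, no array of one group reached the other. Their choice by this measure on the same arrays brings that about, and the groups did not overlap for 68.2% of all probe sets. The other Reep1 probe set did not share the pattern, at 0.01, and the other probe sets of Ceacam10, Klhl13 and Adgrf5 were lower by smaller amounts, between -1.92 and -0.17.

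**Figure D4:**
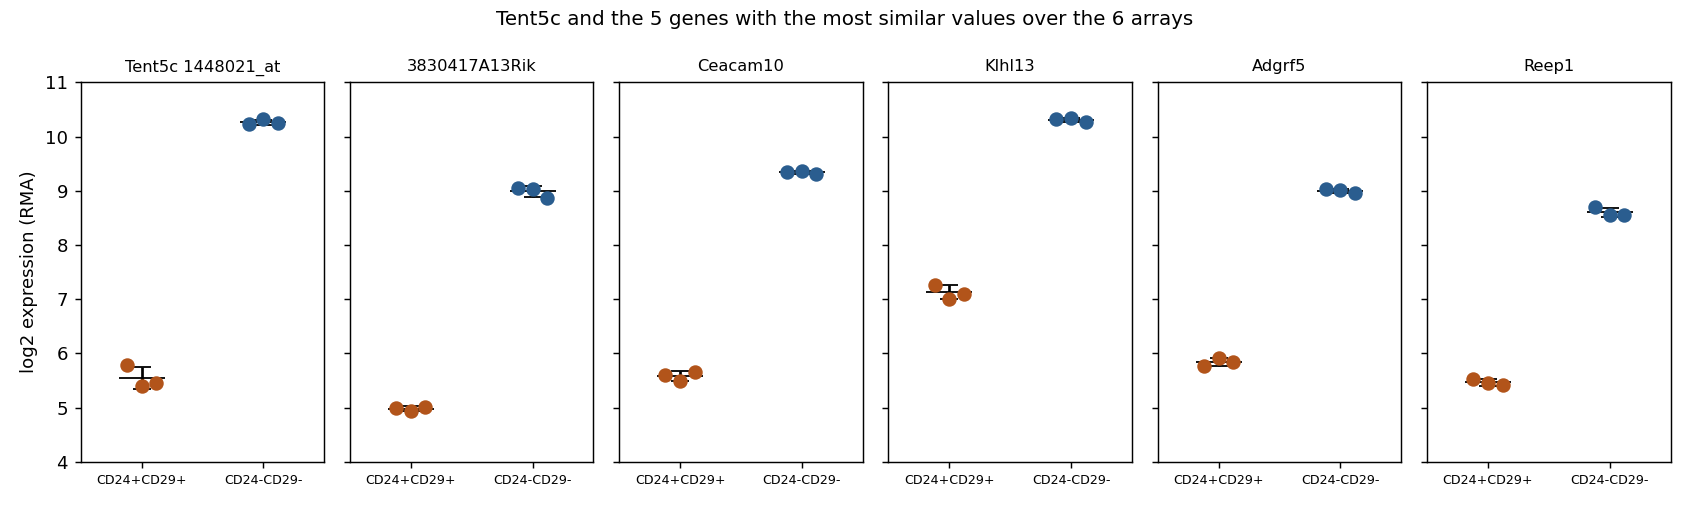
Log2 expression (y axis) of Tent5c and of the 5 genes with the smallest root-mean-square distance to it, on the 3 CD24+CD29+ and the 3 CD24-CD29- arrays (x axis); points are arrays and bars the mean ± SD. Within each panel the CD24+CD29+ arrays lie below all CD24-CD29- arrays, which follows from how the genes were chosen.

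Messages known to be served by TENT5 enzymes, and their partners, were examined next. FNDC3A and FNDC3B are membrane proteins of the endoplasmic reticulum that bind TENT5C. Of 6 measured genes in this list, 3 were higher, 1 was lower and 2 did not pass. Over all genes 34.4% were higher and 36.5% lower, and 70.8% passed in either direction. Of genes whose mean lay between 8 and 9, as the median of this list did, 58.8% were higher and 19.2% lower. The collagen I genes Col1a2 and Col1a1, targets of TENT5A in osteoblasts, were higher in CD24+CD29+ cells. Col1a2 stood at 10.22, 10.20 and 10.22 on the CD24+CD29+ arrays, against 8.20, 8.11 and 8.25 on the CD24-CD29- arrays, 4.07-fold higher, with a log2 difference of 2.02 (SE 0.05) and a limma adjusted p of 1.6e-07. Col1a1 was higher by 1.62-fold (log2 0.69). Fndc3b was higher by 1.38-fold (log2 0.46). Fndc3a, at 0.07, did not pass on the probe set that represents it, while its further probe sets differed in sign, at 0.40 and -0.22.

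The genes of antibody chains, whose messages TENT5C serves in plasma cells, gave low or mixed readings. Jchain, the chain that joins antibody units, lay below the lower quartile on all 6 arrays. Its difference of -0.18 passed (limma adjusted p = 0.02), but not without CD24+CD29+ replicate 1 (-0.17) or 3 (-0.15), nor without CD24-CD29- replicate 1 (-0.16) or 3 (-0.17), nor with quantile normalization (-0.07), cyclic loess (-0.06) or median centring (-0.13), and it turned to 0.79 with poly-A control scaling. Ighm, the heavy chain of IgM, stood at 0.14 and did not pass, with 7 of its 10 other probe sets of the opposite sign. It passed without CD24+CD29+ replicate 3 (0.20), with quantile normalization (0.25), cyclic loess (0.26), median centring (0.19) and poly-A control scaling (1.11), each time as higher. It passed as lower with the mean of its probe sets (-0.15, limma adjusted p = 0.028) and with its brightest probe set (-0.49, limma adjusted p = 0.0016), so its direction depends on the probe set.

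The other enzymes that add nucleotides to RNA 3' ends moved little. Of 10 measured, 6 were higher, 3 were lower and 1 did not pass, with a median difference of 0.16, against -0.04 for all genes; scaling to the poly-A controls made all 10 higher. The canonical polymerase gene Papolg was higher by 1.74-fold, with 9.05, 8.98 and 8.97 on the CD24+CD29+ arrays, against 8.23, 8.09 and 8.28 on the CD24-CD29- arrays. Mtpap, the polymerase of mitochondrial RNA, was higher by 1.41-fold, and the terminal uridylyltransferase gene Tut4 by 1.34-fold. No gene of this list differed by 2-fold. Bright genes were more often higher in general: of 2239 genes whose mean lay between 9 and 10, 57.7% were higher and 22.2% lower, and the median level of this list was 9.42.

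The nuclear machinery that makes the first poly(A) tail had 12 of 18 measured genes higher, 3 lower and 3 not past the threshold (median 0.36), and scaling to the poly-A controls made all 18 higher. The median level of this list was 9.84, where the shares of all genes were again 57.7% higher and 22.2% lower. Cleavage factor gene Cstf3 was higher by 1.68-fold, and Cpsf2 by 1.59-fold. Fip1l1, which links the polymerase to the cleavage complex, was lower by 1.55-fold on the probe set that represents it. Under that scaling the same probe set was 0.34 higher. Its other probe sets stood at -0.17, -0.01 and 0.19 as deposited, of which -0.01 and 0.19 did not pass. Of 15 poly(A)-binding proteins and their regulators, 8 were higher, 3 were lower and 4 did not pass (median 0.11), or 15 higher under scaling to the poly-A controls, 5 higher without CD24-CD29- replicate 3 and 4 higher with the mean of probe sets. Of genes whose mean lay between 10 and 11, as the median of this list did, 55.3% were higher and 23.8% lower. Zc3h14, a nuclear poly(A)-binding protein gene, was higher by 1.89-fold, Pabpc4 by 1.67-fold and Larp1, a regulator of messages that encode ribosomal proteins, by 1.49-fold.

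Among deadenylases, which shorten the tails that TENT5 enzymes lengthen, and their adaptors, 14 of 22 measured genes were higher, 5 were lower and 3 did not pass (median 0.32). At the median level of this list, 9.64, 57.7% of all genes were higher and 22.2% lower, close to the shares in the list. Under scaling to the poly-A controls 20 were higher and 2 lower. The lower pair under that scaling and the pair with falls of at least 2-fold were the same genes, Tob1 and Tob2, whose products recruit the CCR4-NOT deadenylase. Tob1 read 9.59, 9.52 and 9.36 on the CD24+CD29+ arrays, against 11.55, 11.51 and 11.48 on the CD24-CD29- arrays, 4.07-fold lower (log2 -2.03, SE 0.06, limma adjusted p = 3.9e-07). Tob2 read 8.79, 8.77 and 8.79 on the CD24+CD29+ arrays, against 10.14, 10.41 and 10.33 on the CD24-CD29- arrays, 2.85-fold lower (log2 -1.51, SE 0.07, limma adjusted p = 1.7e-06). The other 4 Tob2 probe sets were lower too, from -1.33 to -0.25, while the dim other probe set of Tob1 stood at -0.15. Pde12, a mitochondrial deadenylase gene, was higher by 2.33-fold.

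Of 31 genes of decapping and messenger RNA decay, 19 were higher, 6 were lower and 6 did not pass (median 0.27), or 31 higher under scaling to the poly-A controls; without CD24+CD29+ replicate 3 or with median centring the number lower was 3. Of genes whose mean lay between 8 and 9, as the median of this list did, 58.8% were higher and 19.2% lower, close to the shares in the list. Of the nucleases of the exosome, Exosc10 was higher by 2.12-fold and Dis3 by 1.77-fold. Dcps, which degrades the freed cap, was higher by 2.13-fold on the probe set that represents it, and its 2 dim probe sets went the other way, at -0.35 and -0.28. Of 23 genes of targeting to the endoplasmic reticulum, 11 were higher, 6 were lower and 6 did not pass (median 0.08), or 23 higher under that scaling. With quantile normalization 7 were higher and 9 lower, and with cyclic loess 7 and 10. Of all genes whose mean lay between 10 and 11, as the median of this list did, 55.3% were higher and 23.8% lower. The receptor gene of the signal recognition particle, Srpr, was higher by 2.30-fold. The signal peptidase gene Sec11c and the translocon gene Ssr2 were lower by 1.76-fold and 1.72-fold, and under that scaling stood at 0.16 and 0.19. The other Sec11c probe set stood at 0.15 as deposited and did not pass.

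**Figure D5:**
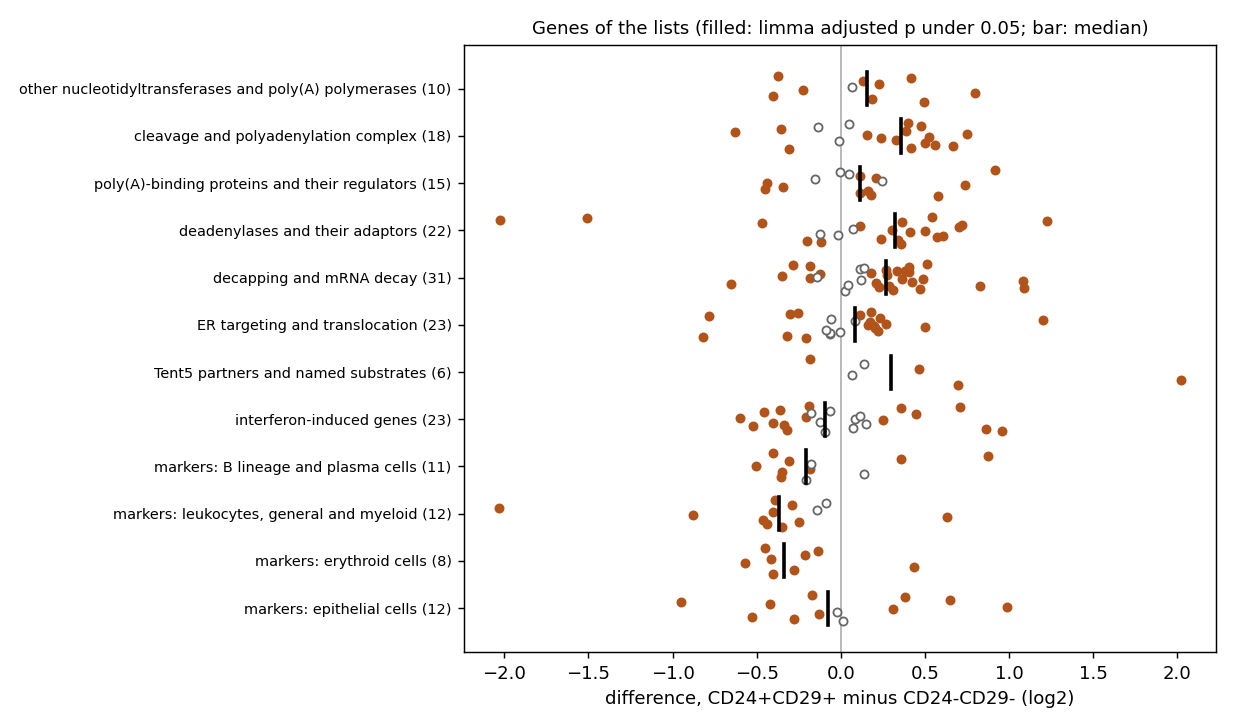
Difference between the groups (x axis, log2, CD24+CD29+ minus CD24-CD29-) of the measured genes of each list (y axis, number of genes in brackets); filled points passed an adjusted p of 0.05 in limma and the bar is the median of the list. Tob1 and Tob2 are the pair of points at the left of the deadenylase row, at -2.03 and -1.51.

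Human FAM46C is known as an interferon-induced gene, so such genes were set beside Tent5c. Of 23 measured, 6 were higher, 9 were lower and 8 did not pass (median -0.09), or 23 higher under scaling to the poly-A controls. Over all genes 34.4% were higher and 36.5% lower. Of genes whose mean lay between 7 and 8, as the median of this list did, 49.6% were higher and 25.5% lower. The lower count is thus near the share of all genes but not near the share at this level, and nothing is read from it. None differed by 2-fold. The chemokine gene Cxcl10 was higher by 1.94-fold, Dhx58 by 1.82-fold and Usp18 by 1.64-fold. Dhx58 had 2 dim probe sets of the opposite sign, and the mean of its probe sets, 0.04, did not pass.

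Markers of the labelled cells and of cell types that express Tent5c elsewhere were read on the same arrays. Epithelial markers averaged 11.73 to 11.79 on CD24+CD29+ arrays and 11.77 to 11.78 on CD24-CD29- arrays, with none of 12 below the lower quartile. The adhesion gene Epcam stood at 14.11 ± 0.02 in CD24+CD29+ cells and 14.13 ± 0.02 in CD24-CD29- cells (SD, n = 3 each) and did not pass, but its other probe set differed by -0.83 and the mean of both, -0.43, passed as lower. The largest differences were in keratin genes. Krt14 was higher by 1.99-fold and Krt5 by 1.57-fold. Krt19 was 1.93-fold lower, against 0.03 on the log2 scale after poly-A control scaling. The other keratin genes of the list went both ways. In all, 4 epithelial markers were higher, 6 lower and 2 not past the threshold, or 11 higher under that scaling. Of genes whose mean lay between 11 and 12, as the median of this list did, 49.8% were higher and 30.4% lower. Of the sort genes, Itgb1 was higher by 0.87 and Cd24a by 0.21, but the mean of the Cd24a probe sets was -0.01.

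Blood cell markers were mostly dim and mostly lower in CD24+CD29+ cells on the deposited scale, and mostly higher with poly-A control scaling. Over all genes 36.5% were lower and 34.4% higher. Of genes whose mean lay between 5 and 6, as the medians of these lists did, 56.6% were lower and 8.22% higher. Nothing about blood cells is read from the shared direction with Tent5c. Some markers were brighter. Mean levels in CD24+CD29+ cells were 7.20 for Lcp1, 6.75 for Csf1r, 9.04 for Prdm1 and 8.97 for Pou2af1, against 9.23 for Lcp1, 7.63 for Csf1r, 8.17 for Prdm1 and 8.61 for Pou2af1 in CD24-CD29- cells. Prdm1 and Pou2af1 were the 2 B lineage markers that were higher. Pou2af1, a coactivator of B cells, is named after its values were seen. Of 12 leukocyte markers, 1 was higher, 9 were lower and 2 did not pass, or 10 higher and 1 lower under that scaling. They averaged 5.74 to 5.80 on CD24+CD29+ arrays and 6.14 to 6.23 on CD24-CD29- arrays. Ptprc, carried by nearly all leukocytes, lay below the lower quartile on all 6 arrays, at -0.09, and did not pass. Lcp1, an actin-bundling protein of leukocytes that tumour cells can also make, was lower by 4.10-fold, and the receptor gene Csf1r by 1.84-fold, which became 0.10 on the log2 scale under that scaling. Coro1a was higher by 1.55-fold on the probe set that represents it, and its other probe sets stood at 0.32 and -0.12 on the log2 scale.

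Of 11 markers of B lineage and plasma cells, 2 were higher, 6 were lower and 3 did not pass, or 11 higher under scaling to the poly-A controls. They averaged 5.92 to 6.01 on CD24+CD29+ arrays and 6.04 to 6.09 on CD24-CD29- arrays. Prdm1, a regulator of plasma cells that other cells use too, was higher by 1.84-fold. Ms4a1 and Tnfrsf17 differed by -0.50 and -0.40, or 0.47 and 0.57 under that scaling. The other Ms4a1 probe set stood at 0.09 as deposited and did not pass. Of 8 erythroid markers, 1 was higher and 7 were lower, or 8 higher under that scaling. They averaged 5.68 to 5.77 on CD24+CD29+ arrays and 5.97 to 6.02 on CD24-CD29- arrays. Gata1 and Tmod1 differed by -0.57 and -0.45, or 0.40 and 0.52 under that scaling, and Ermap was higher by 0.44. Of the 4416 genes whose mean lay between 5 and 6, 56.6% were lower and 8.22% higher, the background for these dim markers. The part of other cell types in the Tent5c difference was not tested.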

How the data were processed

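The deposited values were log2 expression per probe set; per the submitters' processing notes, RMA and Partek made them, with versions and settings not given in the sources used here. The mean of each array was 6.93 over 45101 probe sets, 64 of them controls. Arrays of a group correlated across genes at 0.998 to 0.999 and arrays of different groups at 0.974 to 0.978. The values carry no detection calls, and the number of arrays limits the precision.

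Differences and SEs came from limma 3.58.1 (R 4.3.3) without a block. Member probe sets were fitted among all 45037 probe sets, other genes through their brightest single-symbol probe set, avoiding those ending in _x_at where another existed. P-values were adjusted by Benjamini-Hochberg over all 18193 genes at 0.05. The fit was tested on simulated data.

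Members and lists were chosen with earlier results of these data known. The lists hold genes picked from general knowledge. Named genes were all members, all neighbours of Tent5c, all genes of lists of up to 7, and in other lists the up to 3 largest differences that passed without overlap. Epcam, Ptprc and Pou2af1 were added after their values were seen. Alternatives were other scalings, filters, probe set choices, the replicate number as a block and leaving out each array.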

Additional observations from a re-analysis of the deposited data

How the results depend on the processing

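The directions of both Tent5c probe sets held under the 11 alternatives run for them (scalings, replicate block and leaving out each array), and 1448021_at ranged from -4.91 to -3.74. Leaving out each array in turn gave -4.84 to -4.65 for Tent5c 1448021_at, -1.91 to -1.81 for 1429682_at, -0.65 to -0.49 for Tent5b and -0.11 to 0.11 for Tent5a. Cyclic loess gave -4.91, -1.74, -0.43 and 0.13 in that order, quantile normalization -0.43 for Tent5b and 0.13 for Tent5a, and median centring 0.041 for Tent5a. Scaling to the poly-A controls gave -3.74 and -0.90 for Tent5c, 0.40 for Tent5b and 0.96 for Tent5a.

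That scaling gave 17719 genes higher and 223 lower. By list, the higher and lower counts were 10 and 0 for nucleotidyltransferases, 18 and 0 for cleavage, 15 and 0 for poly(A) binding, 20 and 2 for deadenylases, 31 and 0 for decay, 23 and 0 for targeting to the endoplasmic reticulum, 6 and 0 for partners and 23 and 0 for interferon. Among markers they were 11 and 0 for the B lineage, 10 and 1 for leukocytes, 8 and 0 for erythroid and 11 and 0 for epithelial cells. Of the 6 neighbours, 6, 6, 6 and 5 were higher for Tent5a, Tent5b, Tent5c and Tent5d, and 0 were lower. Differences of named genes that turned positive were Csf1r 0.10, Epcam 0.95, Fip1l1 0.34, Gata1 0.40, Gdap2 0.34, Jchain 0.79, Krt19 0.026, Man1a2 0.65, Ms4a1 0.47, Ptprc 0.89, Sec11c 0.16, Ssr2 0.19, Tmod1 0.52, Tnfrsf17 0.57 and Wdr3 0.41.

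With quantile normalization or cyclic loess, 5 cleavage genes were lower, 7 targeting genes higher, 4 erythroid markers lower, 0 partners lower, 1 Tent5a neighbour lower and 2 Tent5c neighbours higher. Cyclic loess alone gave 10 targeting genes lower, and quantile normalization 0 Tent5d neighbours higher. Median centring gave 3 decay genes and 0 partners lower, with 5 Tent5a and 2 Tent5b neighbours higher. Without the dimmest 40% of genes, 10916 genes were left, of which 5740 were higher and 2966 lower. Dim members of the lists were thereby taken out of the fit and so out of the counts. Among those left, 0 leukocyte markers were higher and 5 lower, and 0 B lineage markers, 1 erythroid marker and 0 partners were lower. With this filter 2 Tent5b neighbours were higher, as with limma trend. The mean of probe sets gave Cd24a -0.015, Ighm -0.15 and Epcam -0.43, the last now past the threshold, 5 cleavage genes lower, 4 poly(A)-binding genes higher and 2 partners lower, and the brightest probe set gave Ighm -0.49 and 2 partners lower. Leaving out each array gave 3 to 7 decay genes lower, 5 to 7 poly(A)-binding genes higher, 0 to 1 partners lower and 1 to 2 Tent5d neighbours higher.

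Of genes past the threshold, 48.5% were higher as deposited, 55.6% with median centring, 98.8% with poly-A scaling and 65.9% without the dimmest 40%. Same-numbered arrays deviated together with r of 0.22, -0.05 and 0.04, so the numbers were not taken as pairs. With the replicate block 6200 genes were higher and 6667 lower, and no named call changed. Apart from the genes that the filter left out, the causes of these changes were not tested. Signal near background limits Tent5a, Tent5b, the CD24+CD29+ side of Tent5c and the dim markers.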

Other observations

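The genes beside the other Tent5 genes passed the threshold no more often than all genes, of which 70.8% passed, 34.4% higher and 36.5% lower. Of the 6 nearest measured protein-coding genes of Tent5a on chromosome 9, 3 were higher, none was lower and 3 did not pass, with differences from -0.0035 to 0.89. Of those of Tent5b on chromosome 4, 1 was higher, 3 were lower and 2 did not pass, from -0.40 to 0.68. Of those of Tent5d on the X chromosome, 1 was higher, 3 were lower and 2 did not pass, from -1.09 to 0.48; without CD24+CD29+ replicate 1, 2 were higher. Scaling to the poly-A controls left none of these 18 genes lower.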
